A study of Homo sapiens with 6 samples.

Results

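The genes described here are 10 that mark astrocytes, the star-shaped support cells of the brain: S100B, SLC1A3, SLC1A2, GJA1, GLUL, ALDOC, CLU, APOE, SPARCL1 and FABP7. They were taken as every probe set that the platform annotation assigns to exactly 1 gene symbol, that symbol being on this list, which gave 10 of 19775 genes and 27 of 54613 probe sets. RNA came from U251MG, an established human glioma line, grown for 24 h in medium with 10% serum on electrospun poly-caprolactone fibers. In 3 cultures, called aligned, the fibers ran highly parallel, and in the other 3, called random, they had no common direction. Each culture was read on its own Affymetrix HG-U133 Plus 2 array, and the series calls the cultures of each substrate independent. Both groups are the same line, no culture on a flat surface was analysed here, and the values thus describe 1 tumour line on 1 polymer.

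Astrocytes clear glutamate from synapses through the transporters SLC1A3 and SLC1A2, convert it to glutamine with the enzyme GLUL, and are joined to each other by gap junctions built from the connexin GJA1. They secrete lipoprotein particles that carry APOE and CLU, and the matrix protein SPARCL1. S100B binds calcium, FABP7 carries fatty acids in radial glia and immature astrocytes, and ALDOC is the aldolase of glycolysis that the brain uses. Gliomas keep parts of this programme and lose others.

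Each of the 10 genes is given here by its brightest probe set. S100B, ALDOC and CLU read lower on every aligned array than on any random array, by 1.13, 0.29 and 0.09 log2 units on average. With no filter, 6.88% of all 19775 genes were lower without overlap in this way. FABP7 read lower by 0.90 on average, but its groups overlapped and the difference shrank to -0.32 without 1 aligned array. The transporter SLC1A3, the enzyme GLUL, the connexin GJA1 and the lipid carrier APOE differed by at most 0.17 log2 units at these probe sets. None of these differences passed limma's test after adjustment over all genes. That test called 0 of 12381 genes (0%), with 1303 (10.5%) at an unadjusted p under 0.05, and the lowest adjusted p was 0.463. Values are log2 readings made with RMA, so 1 unit is a doubling of signal, and differences are aligned minus random. A probe set was called dim, and kept out of this fit, unless at least 3 of the 6 arrays read it above their own median over all probe sets. By this rule 15 of the 27 probe sets and 8 of the 10 genes were kept, and S100B and SPARCL1 were dim.

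The array of aligned replicate 3 stood apart from the others. Its values lay 0.34 log2 units (root mean square over the tested features) from the average of the remaining arrays, against 0.13 to 0.22 for the other 5. The 3' minus 5' signal of the GAPDH and beta-actin control probe sets lay between 0.08 and 0.22 on all arrays, and the exact two-sided permutation p for aligned against random was 0.3 for each, where 3 arrays against 3 cannot go below 0.1. The 18S ribosomal RNA probe sets read 8.53 to 9.78 on aligned and 8.40 to 9.14 on random arrays (exact permutation p = 0.5). The difference of a named gene is also given without aligned 3 where that moves it by over 1.5 times. Since each reading is from a whole culture, fewer cells that express a gene and less RNA in each cell cannot be told apart.

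S100B had the largest difference of the 10 genes. Its brighter probe set, 209686_at, read 4.97, 4.69 and 4.04 on aligned arrays 1, 2 and 3 and 5.73, 5.76 and 5.60 on the random arrays. All 3 aligned values lay below all 3 random values, and the aligned values were the more spread. The means were 4.56 ± 0.48 and 5.70 ± 0.09 (SD, n = 3 each), so that S100B was 2.19-fold higher on random fibers, with a difference of -1.13 ± 0.21 (SE) in log2. This probe set was above the array median on 2 arrays only, both of them random, which is 1 short of the rule, so the fit without dim probe sets does not contain it. With no filter on 19775 genes, limma gave S100B an unadjusted p of 0.000545 and an adjusted p of 0.504. Without aligned 3 the difference was -0.87, and with any 1 array left out it lay between -1.33 and -0.87. The level ran from the 23.4th percentile of all probe sets, on 1 array, to the 51.7th. The second S100B probe set, 1561521_at, stayed between the 0.844th and 1.84th percentile on the 6 arrays, with a difference of 0.05 and a 95% confidence interval of -0.14 to 0.23.

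FABP7 was at the other end of the scale, at a mean percentile of 98.4 within the arrays. The human promoter window of FABP7, 250 bases before to 50 bases after the start in RefSeq (GRCh38.p14, chr6:122779466-122779765, plus strand), is printed for the member with the largest difference among those kept. Capitals mark the single match on either strand to the core letters of the NFI site, named for the NFI transcription factors. Such a match does not show that a factor binds there.
FABP7: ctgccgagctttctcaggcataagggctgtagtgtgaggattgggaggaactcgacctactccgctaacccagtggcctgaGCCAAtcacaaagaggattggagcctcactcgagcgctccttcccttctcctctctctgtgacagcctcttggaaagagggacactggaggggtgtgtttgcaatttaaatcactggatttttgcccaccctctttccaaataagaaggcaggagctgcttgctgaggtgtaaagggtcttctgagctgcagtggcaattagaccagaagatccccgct
The NFI core was searched as TTGGC, and 45.6% of 35116 RefSeq promoter windows of this length hold it on either strand, so its presence is common. The letters AACAAT (SOX factors), ATGCAAAT (the POU octamer), TTCNNNGAA (STAT factors) and TGANTCA (AP-1) were not found on either strand in this window, and 10.1%, 1.77%, 7.66% and 7.71% of all windows hold them.

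The brightest FABP7 probe set, 205030_at, read 12.36, 11.86 and 10.39 on aligned arrays 1, 2 and 3. On the random arrays it read 12.50, 12.45 and 12.35. The random values lay close together, aligned 1 fell inside their range, and aligned 2 and aligned 3 lay below it. The means were 11.54 ± 1.02 and 12.44 ± 0.07 (SD, n = 3 each), a difference of -0.90 ± 0.44 (SE) with a 95% confidence interval of -1.93 to 0.13. In limma the unadjusted p was 0.0787 and the adjusted p 0.486. Without aligned 3 the difference was -0.32, and without aligned 1 it was -1.31, so a single aligned culture sets much of its size. The other 2 FABP7 probe sets had the same sign. The probe set 205029_s_at differed by -1.11 and had 9.33 on aligned 3, against 11.11 and 11.76 on the other aligned arrays and 11.73 to 11.91 on the random ones. The dim probe set 216192_at differed by -0.71, with 4.06 on aligned 3 and 5.10 to 5.69 on the other 5 arrays. All 3 thus had their lowest reading on aligned 3.

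**Figure D1:**
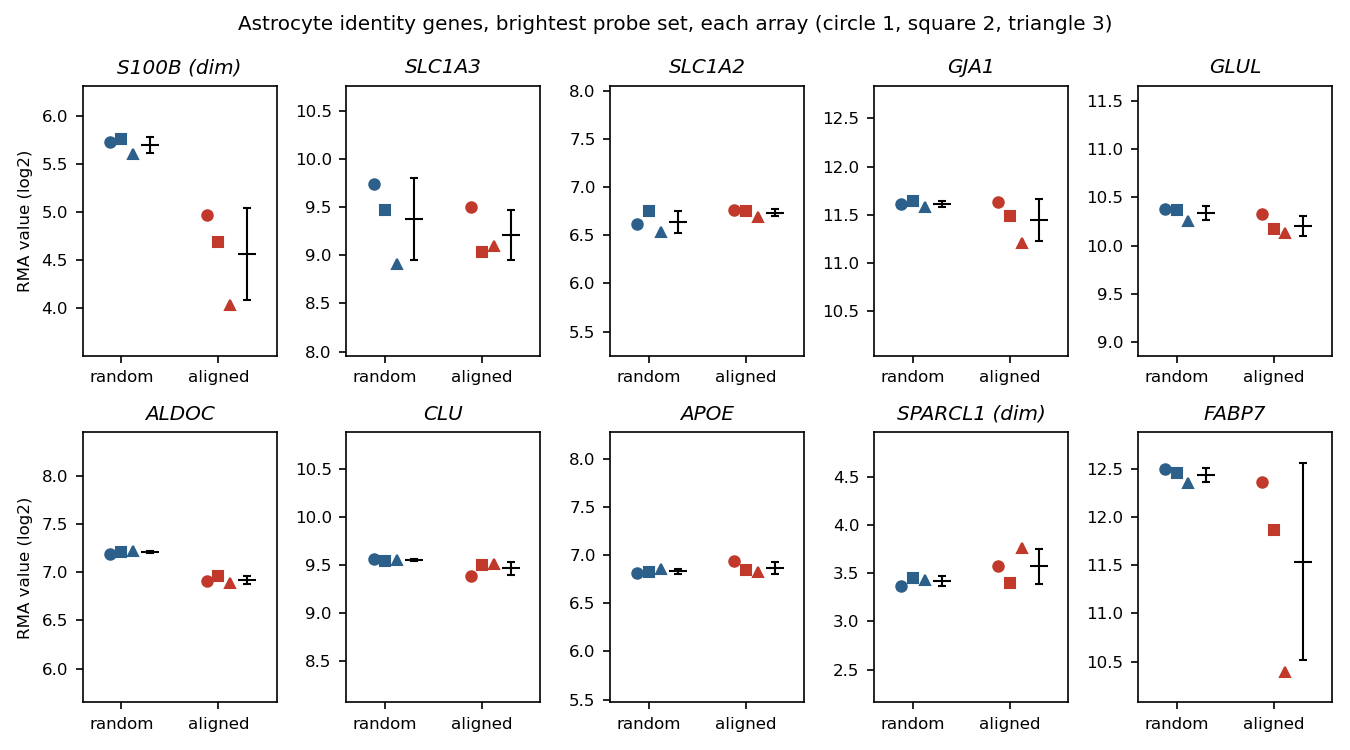
RMA values (log2) of the brightest probe set of each of the 10 genes, one panel per gene with an axis of the same length, for the random (blue) and aligned (red) arrays; circles, squares and triangles are replicates 1, 2 and 3, and bars are the mean ± SD (n = 3). S100B is lower on all aligned arrays, FABP7 spreads from 10.39 to 12.36 on aligned fibers, and ALDOC has the least spread of these 3 genes.

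ALDOC differed by little, but its replicates lay very close together. Its promoter window (RefSeq, GRCh38.p14, chr17:28576846-28577145, minus strand, from 250 bases before the start) is shown because ALDOC was the only kept member under an unadjusted p of 0.05. Capitals mark the match to CACGTG, the E-box that helix-loop-helix transcription factors recognise.
ALDOC: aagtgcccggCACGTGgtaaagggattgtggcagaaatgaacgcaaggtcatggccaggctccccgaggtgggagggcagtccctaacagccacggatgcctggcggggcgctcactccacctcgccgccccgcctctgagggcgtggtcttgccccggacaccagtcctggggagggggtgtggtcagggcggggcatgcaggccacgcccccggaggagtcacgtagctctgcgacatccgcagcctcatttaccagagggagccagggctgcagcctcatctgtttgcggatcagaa
Of all windows 7.26% hold CACGTG, and a match of letters does not show that a factor binds there.

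The ALDOC probe set, 202022_at, read 6.91, 6.96 and 6.89 on the aligned arrays and 7.19, 7.21 and 7.22 on the random arrays. The groups did not overlap, and the smallest gap between them was larger than the range within either group. The means of ALDOC were 6.92 ± 0.04 and 7.21 ± 0.01 (SD, n = 3 each), so that ALDOC was 1.22-fold higher on random fibers, with a difference of -0.29 ± 0.07 (SE) in log2. The unadjusted p in limma was 0.0029 and the adjusted p 0.463. Between arrays of the same number ALDOC differed by -0.29, -0.25 and -0.33, and without aligned 3 by -0.27, so it did not depend on the array that stood apart. ALDOC was read by a single probe set, at a mean percentile of 69.3.

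The readings of both glutamate transporters overlapped between the substrates. SLC1A3, also called GLAST or EAAT1, read 9.50, 9.04 and 9.09 on aligned and 9.74, 9.47 and 8.91 on random arrays. The highest and the lowest of these 6 values were both from random fibers. The difference of SLC1A3 was -0.16 ± 0.22 (SE) with a 95% confidence interval of -0.68 to 0.35 (limma unadjusted p = 0.474, adjusted p = 0.764). It was -0.11 without aligned 3 and turned to 0.02 without random 1. The dim SLC1A3 probe set 1569054_at differed by -0.34, with the groups overlapping.

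SLC1A2, also called GLT-1 or EAAT2, the main glutamate transporter of the mature forebrain, was read by 6 probe sets, of which 5 were dim. Their mean percentiles ran from 2.14 to 40.3. The kept probe set, 217055_x_at, has a suffix that Affymetrix gives to probes shared with other transcripts. It read 6.76, 6.75 and 6.69 on aligned and 6.62, 6.76 and 6.53 on random arrays, a difference of 0.10 ± 0.08 (SE). The 95% confidence intervals of all 6 SLC1A2 probe sets included 0. Among these probe sets, therefore, only one with possible signal from other transcripts stood above the array median.

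GLUL, glutamine synthetase, read 10.33, 10.17 and 10.13 on aligned and 10.38, 10.37 and 10.25 on random arrays at its brightest probe set. The groups overlapped through aligned 1, and the difference was -0.13 ± 0.08 (SE; limma unadjusted p = 0.172, adjusted p = 0.562). The 3 kept GLUL probe sets differed by -0.22, -0.14 and -0.13, all in 1 direction, and the dim one by -0.01.

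GJA1, connexin 43, was among the brightest signals on the arrays, at a mean percentile of 98.0. It read 11.64, 11.49 and 11.21 on aligned and 11.61, 11.65 and 11.58 on random arrays. The difference was -0.17 ± 0.11 (SE; limma unadjusted p = 0.178, adjusted p = 0.565), and without aligned 3 it was -0.05. As with FABP7, aligned 1 read within the random range or above it, and aligned 3 read lowest.

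The secreted lipid carriers had the smallest differences. CLU, clusterin, an extracellular chaperone, read 9.39, 9.50 and 9.51 on aligned and 9.56, 9.54 and 9.55 on random arrays. The groups did not overlap, but the gap between them was smaller than the SD of the aligned values, and the difference was -0.09 ± 0.07 (SE; limma unadjusted p = 0.26, adjusted p = 0.629). A second CLU probe set, 208792_s_at, differed by -0.10 and also did not overlap, and the other 2 differed by -0.09 and 0.13. APOE, the main apolipoprotein of the brain, read 6.94, 6.84 and 6.82 on aligned and 6.81, 6.82 and 6.86 on random arrays. Its difference was 0.04 ± 0.07 (SE), with a 95% confidence interval of -0.13 to 0.20, and it was 0.06 without aligned 3. The 3 APOE probe sets, all with suffixes for sequence shared between transcripts, differed by 0.04, 0.11 and 0.10. SPARCL1, a matrix protein that astrocytes release at synapses, was dim on every array, at the 14.2nd to 19.5th percentile. It read 3.57, 3.39 and 3.76 on aligned and 3.36, 3.46 and 3.43 on random arrays, a difference of 0.16 ± 0.10 (SE) with a 95% confidence interval of -0.08 to 0.39 and overlapping groups, and of 0.06 without aligned 3.

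**Figure D2:**
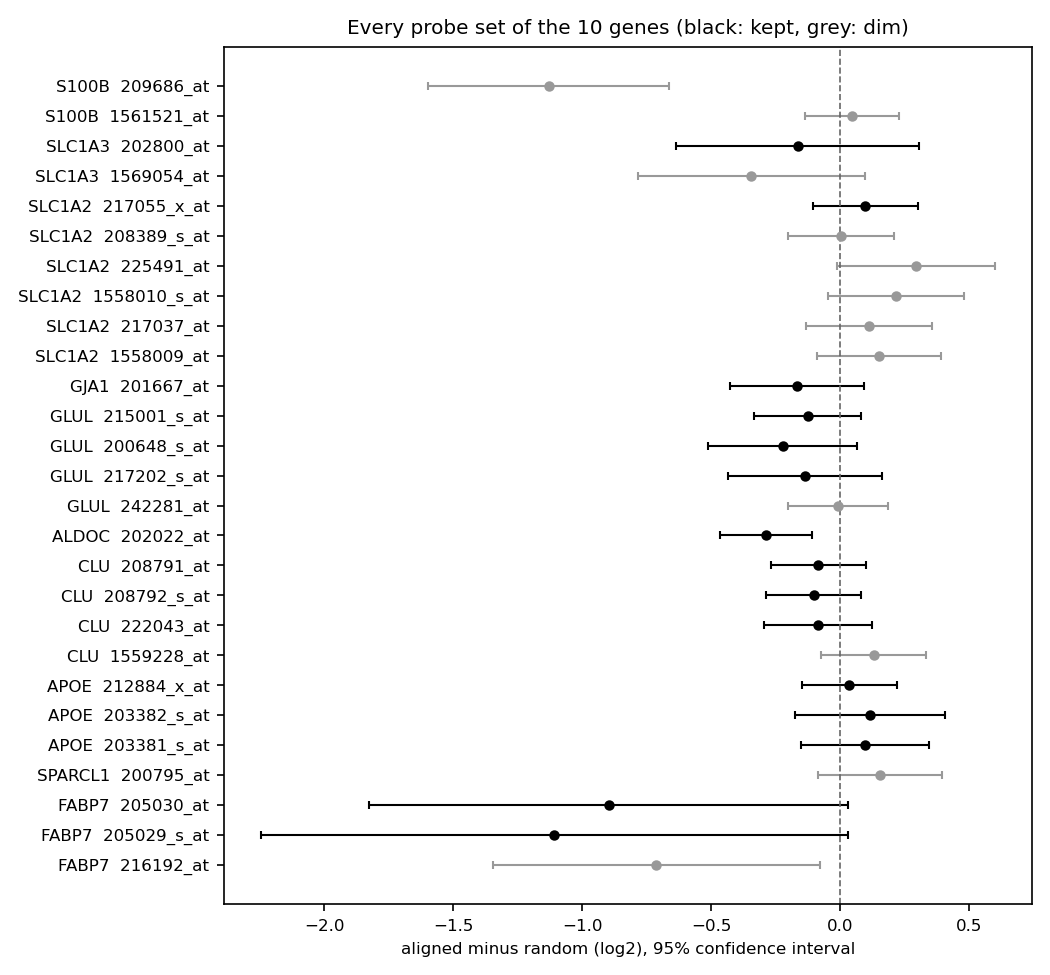
Aligned minus random (log2) for each of the 27 probe sets of the 10 genes, with 95% confidence intervals from limma on all probe sets without a filter; black points are kept probe sets and grey points dim ones. The intervals of 3 probe sets lie wholly below 0: S100B 209686_at, ALDOC 202022_at and the dim FABP7 216192_at.

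Counted together, 6 of the 8 kept genes had a negative difference, where 47.5% of all tested genes had one. The median of the 8 was -0.15, or -0.10 without aligned 3, and that of all 12381 genes was 0.01. Only ALDOC was lower at an unadjusted p under 0.05 (5.81% of all genes in that direction), and 2 genes, ALDOC and CLU, were lower without overlap (9.33% of all genes). With no filter, 7 of the 10 genes had a negative difference (42% of all genes), ALDOC and S100B were lower at an unadjusted p under 0.05 (4.5%), and S100B, ALDOC and CLU were lower without overlap (6.88%). The count of kept genes at that p was 3 without aligned 1, where FABP7 and GJA1 joined ALDOC and 10.1% of all genes were lower at that p. It was 1 with each other array left out, where 2.79% to 5.54% were. Of the 15 kept probe sets 1 was lower at an unadjusted p under 0.05 (5.83% of 27621), and of all 27 without a filter 3 were (4.67% of 54613). In the fit blocked on replicate number the count of kept probe sets was 3, since FABP7 205029_s_at and 205030_at reached an unadjusted p of 0.0438 and 0.0459 in limma. With that block 7.3% of all genes were lower at that p. Counts of this size are given as a description, and the test over all genes called none of these genes.

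**Figure D3:**
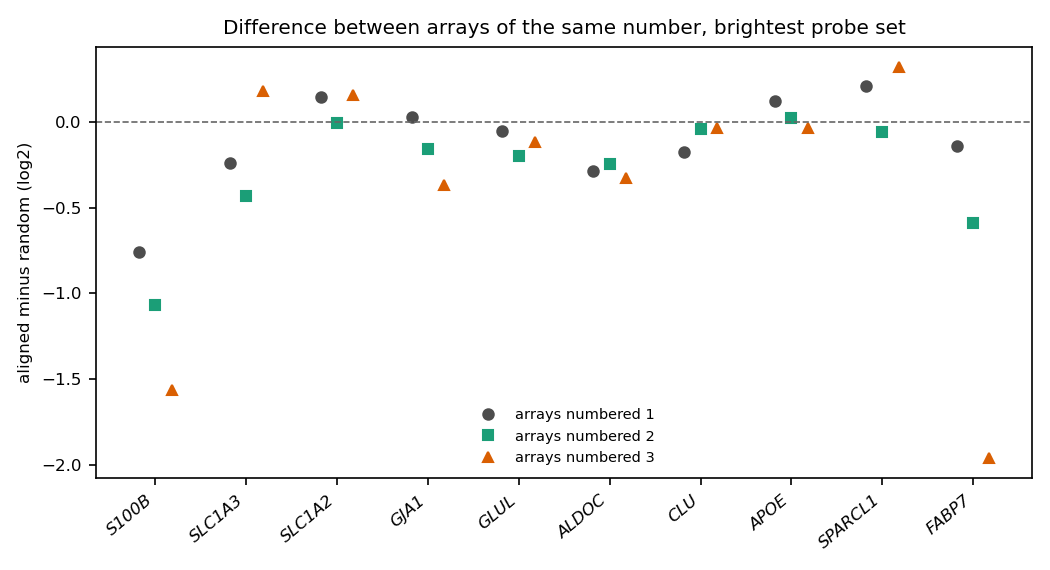
Difference (log2) between the aligned and the random array of the same replicate number, for the brightest probe set of each gene; circles, squares and triangles are numbers 1, 2 and 3. ALDOC has nearly equal differences (-0.29, -0.25 and -0.33), whereas FABP7 goes from -0.14 to -1.96 and S100B from -0.76 to -1.56.

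The signal of the list ran from bright to near the floor. A percentile places a probe set within its array and does not rank the mRNA of different genes, since probes differ in affinity. FABP7, GJA1, GLUL, CLU and SLC1A3 had mean percentiles of 98.4, 98.0, 94.5, 90.3 and 88.8. ALDOC, APOE and SLC1A2 had 69.3, 67.0 and 65.2, while S100B had 41.2 and SPARCL1 had 16. The label was checked against 3 further markers of mature astrocytes, whose brightest probe sets lay below the array median on average: the water channel AQP4 at 11, the folate enzyme ALDH1L1 at 48.0 and the filament protein GFAP at 49.1. The 31 other astrocyte genes with a probe set ran from 5.72 to 99.98, with a median of 49.95. By the same measure, the brightest probe set of each gene, the median over all 19775 genes was 63.7. The median was 36.3 for 12 oligodendrocyte genes, 63.4 for 13 neuronal genes, 27.8 for 9 microglial genes, 47.8 for 8 endothelial genes and 59.9 for 8 genes of mural cells and fibroblasts. Per array, the mean percentile of the microglial markers was 30.6 to 31.1 on aligned and 29.3 to 30.9 on random fibers, and that of the oligodendrocyte markers 41.4 to 41.9 and 41.4 to 42.0. That of the neuronal markers was 56.8 to 57.7 and 57.1 to 58.0, that of the endothelial markers 43.9 to 46.8 and 43.3 to 45.3, and that of mural cell and fibroblast genes 55.3 to 55.9 and 54.6 to 56.3. These ranges overlapped between aligned and random arrays for each of these 5 lists. The mean percentile of the 10 astrocyte genes was 70.7 to 72.9 on aligned and 73.3 to 74.4 on random arrays. It was likewise lower on aligned fibers without overlap for the 31 other astrocyte genes, at 56.2 to 57.4 and 57.5 to 58.7. The same held for 28 regulators of astrocyte fate, at 83.3 to 84.5 and 85.4 to 85.8. Among the 10 genes, S100B alone ran from 23.4 to 51.7 over the arrays, lower on every aligned array, and it enters the mean of the 10. Whether that mean still separates without S100B was not computed, so it does not show a shift of the whole list. The separations of these lists were not tested, and how often a list of genes separates in this way was not computed. The lists were also chosen with earlier results known.

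**Figure D4:**
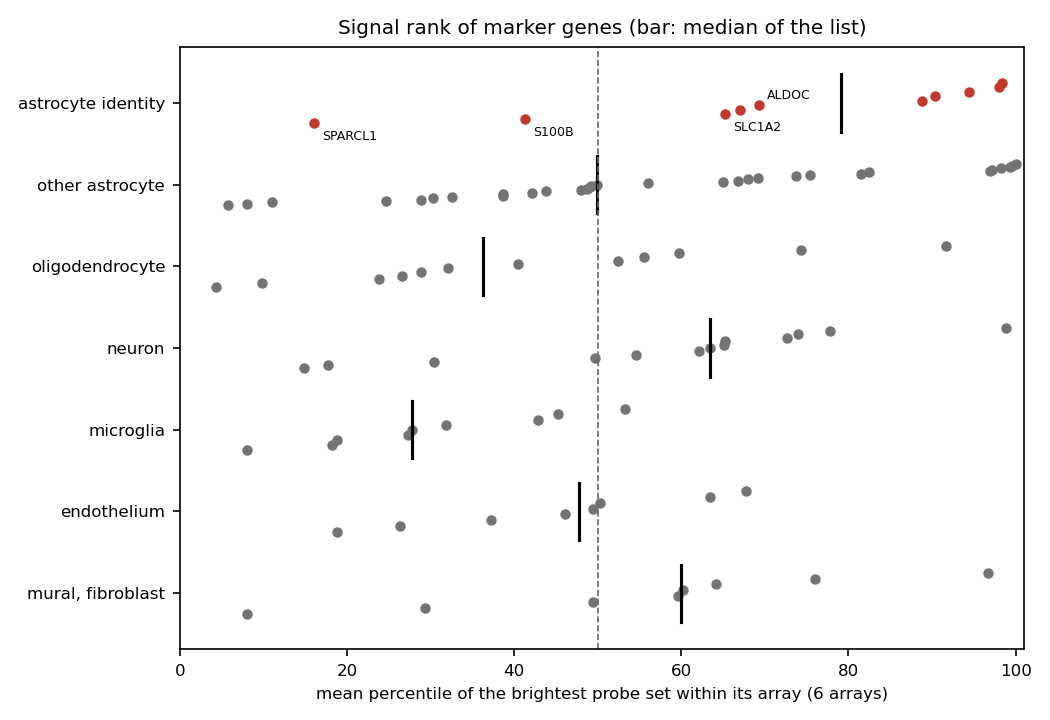
Mean percentile within the array (average of 6 arrays) of the brightest probe set of each gene, by marker list, with no filter; red points are the 10 astrocyte genes, grey points the genes of the other lists, black bars the list medians, and the dashed line the array median. The 10 genes run from SPARCL1 at 16 to FABP7 at 98.4, and the microglial genes all lie at or below 53.3.

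Other astrocyte genes were read from a list of 33, of which 18 were kept. Of these, 11 had a negative difference and 2 were lower at an unadjusted p under 0.05, with 0 higher (5.81% and 4.72% of all genes), and their median was -0.05. EDNRB, the endothelin receptor of astrocytes, read 7.39, 7.42 and 6.93 on aligned and 7.97, 8.17 and 8.23 on random arrays, a difference of -0.88 ± 0.15 (SE) without overlap, and -0.72 without aligned 3. FGFR3, a growth factor receptor, differed by -0.65 ± 0.26 (SE), which was -0.37 without aligned 3. GFAP read 5.80, 4.87 and 5.00 on aligned and 6.65, 6.20 and 5.24 on random arrays, a difference of -0.81 ± 0.38 (SE) with overlapping groups, from the 1 of its 3 probe sets that was kept. In the fit blocked on replicate number 5 genes of this list were under that p, GFAP among them, against 7.3% of all genes lower in that fit. There were 4 without aligned 1 (10.1% of all genes), and EDNRB alone without aligned 3 or random 2 (3.68% and 3.43%). In limma the adjusted p of these 3 genes was 0.463, 0.472 and 0.482.

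Among regulators of astrocyte fate most readings were lower on aligned fibers. The difference was negative in 23 of 27 kept genes, and 11 were lower at an unadjusted p under 0.05, with 0 higher, against 5.81% and 4.72% of all genes, and 0 passed over all genes in limma. The list was assembled with earlier results on some of these genes known, so this count is not independent evidence. With aligned 3, random 2 or random 3 left out the count became 7, 5 or 4, where 3.68%, 3.43% and 2.79% of all genes were lower at that p. The list's median was -0.24 and, without aligned 3, -0.22. ID2 and ID3, which block helix-loop-helix factors, differed by -1.12 ± 0.20 and -0.67 ± 0.12 (SE), and the related ID4 by -0.12 ± 0.17, or -0.24 without aligned 3. LHX2, a homeodomain factor of neural progenitors, differed by -0.33 ± 0.10. SOX9, a factor that starts glial development, read 11.07, 11.27 and 10.52 on aligned and 11.35, 11.56 and 11.55 on random arrays, a difference of -0.53 ± 0.18 (SE) without overlap, which was -0.31 without aligned 3. POU3F2, a POU factor singled out here with its values already known, differed by -0.80 ± 0.29, or -0.43 without aligned 3.

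Genes that handle glutamate and glutamine beside SLC1A3, SLC1A2 and GLUL had differences of both signs. Of 11 measured genes 6 were higher and 2 lower at an unadjusted p under 0.05, against 4.72% and 5.81% of all genes, and 0 passed over all genes in limma. SLC38A3, a glutamine transporter of astrocytes, read 6.60, 6.34 and 6.03 on aligned and 7.10, 7.12 and 7.07 on random arrays, a difference of -0.78 ± 0.14 (SE). GLUD1, the mitochondrial glutamate dehydrogenase, differed by 0.25 ± 0.07, and SLC7A11, which exports glutamate in exchange for cystine, by 0.30 ± 0.09. Both were higher on all 3 aligned arrays than on any random array, as were 6 of the 11 genes in all and 1078 of all 12381 genes. The neuronal transporter SLC1A1, chosen with its values known, differed by -0.28 ± 0.09. SLC1A4 of the same family, which carries alanine, serine and cysteine and was also chosen with its values known, differed by 0.85 ± 0.33, or 0.45 without aligned 3. The count of 6 was 4 without aligned 2 or aligned 3, where 3.5% and 2.9% of all genes were higher, and 3 without random 2 or random 3, where 2.54% and 2.25% were. Members of 1 transporter family thus had differences of both signs. The differences between family members were not tested.

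In the unpaired fit on all 6 arrays the partners of GJA1 and APOE showed no called gene in limma and 0 at an unadjusted p under 0.05. Of 8 kept genes for connexins, pannexins and their scaffold 6 had a positive difference, with a median of 0.09. Here PANX2, a pannexin, differed by 0.17 ± 0.08 (SE), and the connexins GJC1 and GJD3 by -0.14 ± 0.09 and 0.14 ± 0.10, where GJC1 was -0.07 without aligned 3. Of 8 kept genes that handle apolipoproteins 5 had a negative difference, with a median of -0.08, among them APOL2 at -0.26 ± 0.12, the sorting receptor SORL1 at -0.46 ± 0.24, which was -0.17 without aligned 3, and the oxysterol receptor NR1H3 at -0.16 ± 0.13. SORL1 was lower at an unadjusted p under 0.05 with the replicate block (7.3% of all genes). Without aligned 1, GJC1, APOL2 and SORL1 were (10.1%), and without random 1 APOL2 was (5.54%). In these settings 0 genes of the 2 lists were higher at that p.

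**Figure D5:**
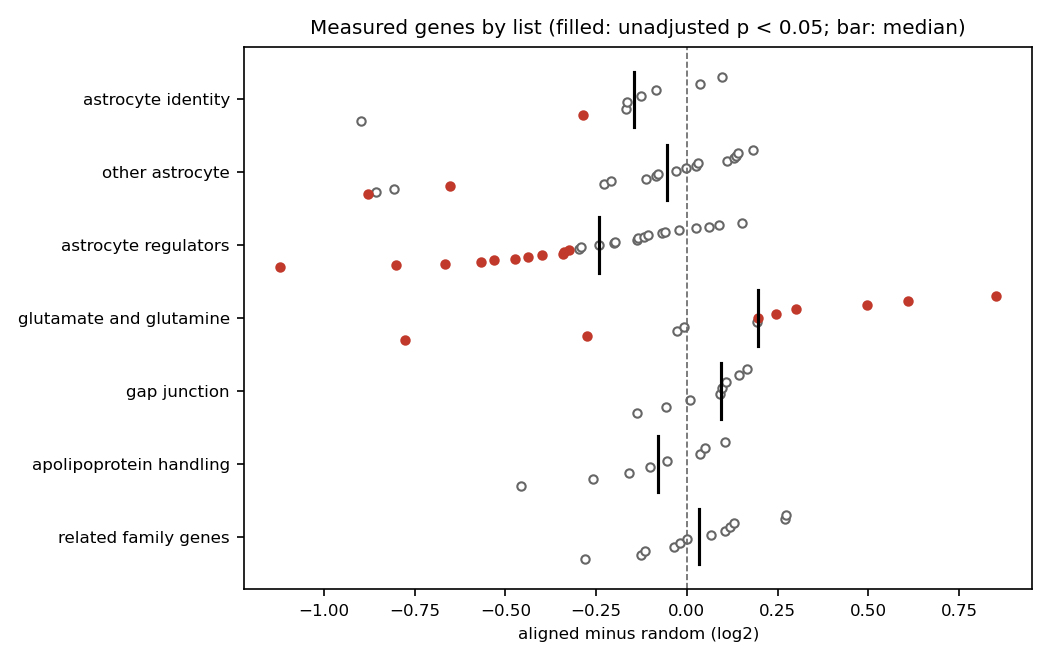
Aligned minus random (log2) of the kept genes of each list; filled points have an unadjusted p under 0.05 in limma, open points do not, and bars are list medians. The regulator list has 11 filled points, all below 0, and the glutamate and glutamine list has 6 above and 2 below 0.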

How the data were processed

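The values are log2 readings as deposited by the authors, summarised by probe set with RMA according to the submitters' processing notes. The RMA version is not given in the sources used here. Groups and replicate numbers come from the sample titles. The 62 control probe sets were removed. A gene was represented by its kept probe set with the highest mean, among probe sets with 1 symbol. Detection calls were not used here, so dimness is a rank within the array. Aligned and random arrays were compared in limma 3.58.1 (R 4.3.3; lmFit, then eBayes), two-sided, with 4 residual degrees of freedom before shrinkage, and adjusted over all features by the Benjamini-Hochberg method at 0.05. The number of arrays limits the precision, with a median SE of 0.10. The code was tested on simulated data. Figures used matplotlib 3.10.9.

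The members and gene lists were chosen with earlier results of these data known. Named genes are all 10 members, the 3 genes of smallest unadjusted p in each list, and some fixed markers and family genes. All 10 symbols matched RefSeq by gene identifier. Promoter windows of 7 were searched, and windows on chromosome 8, where CLU lies, were left out of that search. No genome build belongs to the array values.

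For the arrays numbered 1, 2 and 3, what remained after the group mean correlated across genes at 0.369, 0.322 and 0.109, all above 0.1. The numbers were therefore treated as pairs, but only in fits named as blocked on replicate number. All other fits, with their SE, confidence intervals and p values, were unpaired. The labels do not say what a number shares, and aligned 2 with random 3 gave 0.188. Alternatives were 4 other filters or probe set choices, 2 normalizations, another prior, array weights, the block and each of the 6 arrays left out.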

Additional observations from a re-analysis of the deposited data

How the results depend on the processing

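Over 15 alternatives no gene passed the adjusted threshold, except with array weights, which gave 2101 genes and 291 probe sets; there aligned 2 carried a weight of 15.2 and aligned 3 of 0.245, and the estimate stopped before it converged. Leaving out 1 array gave 0 genes and 0 to 1 probe sets, the 1 without aligned 1. The count of kept astrocyte genes lower at an unadjusted p under 0.05, 1 in the report, was 2 with no filter, 0 with the filter at the 75th percentile, which drops ALDOC, 5 with array weights, where 16.9% of all genes were, 1 with the replicate block and 1 to 3 with an array left out. The count of their probe sets was 3 with no filter, 0 with the stricter filter, 6 with array weights, 3 with the replicate block and 1 to 5 with an array left out. Of all probe sets 4.67% were lower at that p with no filter, and the share for the other alternatives is not given. Of all genes 5.86% were with the stricter filter, 7.3% with the replicate block and 2.79% to 10.1% with an array left out. With no filter the genes numbered 2 to 4 with an array left out and 3 with the replicate block, settings chosen after seeing the data. With no filter and all arrays 4.5% of all genes were lower at that p, and the shares in these added settings are not given. Genes of the other lists at that p, in either direction, numbered 25, against 48 with array weights. They numbered 15 without probe sets that share sequence by their suffix, 31 with the replicate block and 14 to 35 with an array left out. Of all genes 10.5% were at that p in the report. In these settings the shares lower and higher were 16.9% and 18%, 6.11% and 4.6%, and 7.3% and 6.32%. With an array left out they were 2.79% to 10.1% lower and 2.25% to 9.97% higher. The block changed no call over all genes. The median over the astrocyte genes measured in each of the 15 alternatives lay between -0.22 and -0.09. These genes numbered 8, but 10 with no filter and 5 with the stricter filter or without probe sets that share sequence. With 1 array left out, SLC1A3 ranged from -0.396 to 0.0181 (above 0 without random 1), APOE from -0.000228 (without aligned 1) to 0.0587, KDR from -0.323 to 0.0694 (above 0 without aligned 3), and ID4 from -0.245 to 0.0183 (above 0 without aligned 1, and at 0.00865 without random 3). With array weights GJD3, MBP, AIF1 and VWF turned to -0.0215, -0.0278, -6.11e-05 and -0.0278. Genes that a filter or probe set choice removes, such as ALDOC, SYT1 and AIF1 under the stricter filter, have no value there. Where no value of this section shows it, the cause was not tested.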

Other observations

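Relatives of the astrocyte genes were read beside them. ALDOA, the aldolase found in most tissues, had a difference of -0.12 ± 0.08 (SE) at its brightest probe set, or -0.06 without aligned 3, and its 3 probe sets lay between -0.20 and -0.12. ALDOC differed by -0.29, and the difference between both aldolases was not tested. SPARC, the matrix protein related to SPARCL1, was at a mean percentile of 99.1, with a difference of -0.13 ± 0.15 (SE) and of -0.0031 without aligned 3, whereas SPARCL1 was dim. FABP5, the fatty acid carrier of skin and other tissues, was read by 1 probe set only, dim at a percentile of 11.5. Probe sets assigned to several symbols were not used, so this does not settle the level of FABP5 in the line. The S100 genes with the smallest p were S100A16 and S100A11, at 0.27 ± 0.13 and 0.27 ± 0.14 (SE), and S100A4 at -0.28 ± 0.16. Without aligned 3 they were 0.16, 0.12 and -0.15. None of the 12 kept genes of this list had an unadjusted p under 0.05 in limma without the block. With the replicate block S100A4 (lower) and S100A16 (higher) did, and without aligned 1 S100A11 did as well. Of all genes 7.3% were lower and 6.32% higher at that p with the block, and 10.1% and 9.97% without aligned 1.

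In the marker lists for other cell types, 4 of the 26 kept genes had an unadjusted p under 0.05 in limma, against 10.5% of all genes. NEFL, a neurofilament, differed by -1.38 ± 0.46 (SE) and by -0.79 without aligned 3. CNP, an enzyme of myelin, differed by -0.50 ± 0.13, and SYT1, a synaptic vesicle protein, by 0.56 ± 0.14. RGS5, a marker of pericytes, differed by -0.30 ± 0.12 with overlapping groups. The adjusted p in limma was 0.463 for NEFL, CNP and SYT1 and 0.472 for RGS5.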
